A study of Homo sapiens with 12 samples.

Results

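The regions described here are 2038 stretches of chromatin beside human gene starts at which acetylated H2A.Z (H2A.Zac) was lost in K562 cells whose EP400 lacked its TRRAP-binding region, while the H2A.Z lying beneath was listed as unchanged. They were chosen by the authors' own lists of lost, gained and unchanged ChIP-seq regions, and therefore by measured values. A lost H2A.Zac region was taken when it overlapped a window of 2 kb centred on the transcription start site (TSS) of a gene, when at least 25% of its length lay in unchanged H2A.Z, and when it shared no base with lost or gained H2A.Z. They made up 2038 of the 5303 lost H2A.Zac regions near a TSS, out of 94586 H2A.Zac regions and 158028 regions of both marks in the 6 lists.

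K562 is a leukemia cell line that the labels class as lymphoblast. Both lines carried a dTAG degron on every endogenous EP400 copy and received 500 nM dTAGV-1 for 24 h, which removes that protein, so each relied on EP400 expressed from the AAVS1 safe-harbor locus: wild-type EP400 (WT) or EP400 without the segment that holds TRRAP (ΔTRRAP). Each line was 1 clone derived from the same degron clone, and a clonal difference cannot be told apart from the effect of the deletion. H2A.Z and H2A.Zac were each profiled in 2 biological replicates per line, with an input for every replicate, giving 12 libraries. The lists hold 1 comparison per mark and no value per replicate, so no spread between replicates could be computed, no difference here was tested, and the read depth behind a region is unknown. Intervals are Wilson 95% intervals of a share or exact binomial intervals of a median. They cover counting error only, and neighboring regions are not independent.

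H2A.Z is a variant of histone H2A that replaces the canonical protein in nucleosomes on either side of active gene starts. The human TIP60 complex joins an H2A.Z-exchanging motor, EP400, to a histone acetyltransferase, KAT5, and holds TRRAP, a large scaffold that binds transcription activators. Acetylation of the H2A.Z tail is a property of active promoters, whereas unacetylated H2A.Z is also found at poised and silent ones. The comparison asks where H2A.Zac changed without a listed change in the amount of H2A.Z.

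Promoters are shown for 2 cases, a lost region that reaches over the start site and a lost region beside it. Each was read from the hg38 genome 5′ to 3′ along the gene's own strand and is in lower case, with matches to 13 short motifs, searched on both strands, in capitals. The first 2 are the 250 bases before the TSS of MCIDAS (chr5:55227316-55227565, minus strand) and TMEM272 (chr13:51845178-51845427, minus strand), which are among the protein-coding genes whose TSS lay in the lost regions of highest likelihood ratio. Neither window overlapped an annotated exon. The last is the central 300 bases of the lost region upstream of TUBGCP2 (chr10:133318985-133319284, minus strand), among the highest ratios of lost regions wholly upstream of a protein-coding TSS and clear of exons. TUBB8 would have come second among the TSS windows and was not shown because it has near-identical copies elsewhere in the genome.
MCIDAS: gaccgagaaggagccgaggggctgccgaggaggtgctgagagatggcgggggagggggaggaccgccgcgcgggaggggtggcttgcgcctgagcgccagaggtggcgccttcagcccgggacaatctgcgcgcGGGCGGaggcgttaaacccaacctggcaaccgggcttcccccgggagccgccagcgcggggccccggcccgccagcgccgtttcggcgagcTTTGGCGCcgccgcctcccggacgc
TMEM272: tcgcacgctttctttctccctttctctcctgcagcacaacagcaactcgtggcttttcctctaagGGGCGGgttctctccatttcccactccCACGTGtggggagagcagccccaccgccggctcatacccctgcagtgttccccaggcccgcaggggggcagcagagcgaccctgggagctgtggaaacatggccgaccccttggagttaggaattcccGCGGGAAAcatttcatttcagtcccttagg
TUBGCP2 upstream: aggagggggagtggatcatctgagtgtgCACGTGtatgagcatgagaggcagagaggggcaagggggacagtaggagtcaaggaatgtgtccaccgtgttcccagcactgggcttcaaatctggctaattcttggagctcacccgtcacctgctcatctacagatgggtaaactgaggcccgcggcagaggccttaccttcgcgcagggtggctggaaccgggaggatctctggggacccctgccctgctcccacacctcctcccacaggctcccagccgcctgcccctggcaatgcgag
The capitals mark, in MCIDAS, a GC box (GGGCGG or its complement) and the E2F motif TTTGGCGC. Its lost region began only 22 bp before the TSS and ran into the gene, so the GC box lies in the adjoining stretch listed as unchanged and the E2F match crosses the edge between the stretches. TMEM272 holds a GC box, an E-box (CACGTG) and the E2F motif TTTCCCGC, of which only the last lies in its lost region, which began 130 bp before the TSS. The TUBGCP2 window, wholly inside the lost region, holds 1 E-box.

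Of 18767 TSS-proximal H2A.Zac regions lying over unchanged H2A.Z alone, 10.9% were lost (2038), 27.4% were gained (5137) and the remaining 11592 were listed as unchanged. These shares are those of the rule itself and nothing is read from them, and they depend on the cutoff: at a ratio of 10 or more there were 293 lost and 330 gained regions. Among all 5303 lost regions near a TSS, the 2038 were 38.4% (37.1 to 39.7), 1722 shared bases with lost H2A.Z (32.5%), 1314 lay over no H2A.Z region (24.8%), 222 touched unchanged H2A.Z with less than the minimum overlap and 7 shared bases with gained H2A.Z. The 38.4% depends on the cutoff too, and was 16.8% at a ratio of 10 or more. Of the 9404 gained H2A.Zac regions near a TSS, 54.6% lay over unchanged H2A.Z alone, and of the 17231 unchanged ones, 67.3%. A further 3951 lost regions over unchanged H2A.Z alone lay away from any TSS window.

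**Figure D1:**
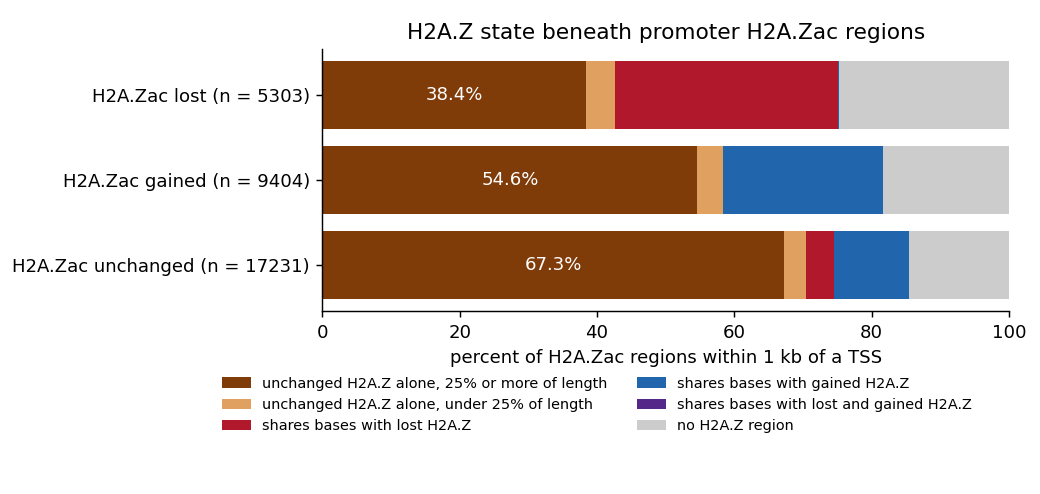
H2A.Z state beneath TSS-proximal H2A.Zac regions, by the authors' call for H2A.Zac (rows), as percent of the regions in each row. Unchanged H2A.Z alone, over at least 25% of the region's length, lay beneath 38.4% of lost, 54.6% of gained and 67.3% of unchanged H2A.Zac regions. These shares are at the authors' log10 likelihood ratio cutoff of 3.

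The lost regions were short and usually flanked the start site. Their median width was 516 bp (interval 500 to 533), from 250 to 4276 bp, against 548 bp for gained and 912 bp for unchanged H2A.Zac regions over unchanged H2A.Z. Only 479 of the 2038 spanned the nearest TSS, which is 23.5% (21.7 to 25.4). The same share was 40.1% (38.8 to 41.4) for gained, 58.1% (57.2 to 59.0) for unchanged regions and 43.1% for the 1722 regions that lost both H2A.Zac and H2A.Z. The name "promoters losing acetylation" therefore describes most of these regions only in the sense of a promoter flank.

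The order against gained and unchanged regions held at equal width. Below 400 bp, 12.7% of lost regions spanned the TSS, 23.8% of gained and 28.0% of unchanged ones. At 1000 bp or more the shares were 49.1%, 74.0% and 81.2%. The regions that lost both marks came closer at equal width, with 14.4% in the narrowest class and 59.3% in the widest, and the intervals of the lost classes overlapped in all but the widest. The share that spanned a TSS rose with the authors' log10 likelihood ratio, from 13.9% (11.3 to 17.0) of 582 regions with a ratio between 3 and 5 to 46.3% (38.8 to 54.0) of 162 regions at 12 or more, and the median width rose with it from 375 to 800.5 bp.

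**Figure D2:**
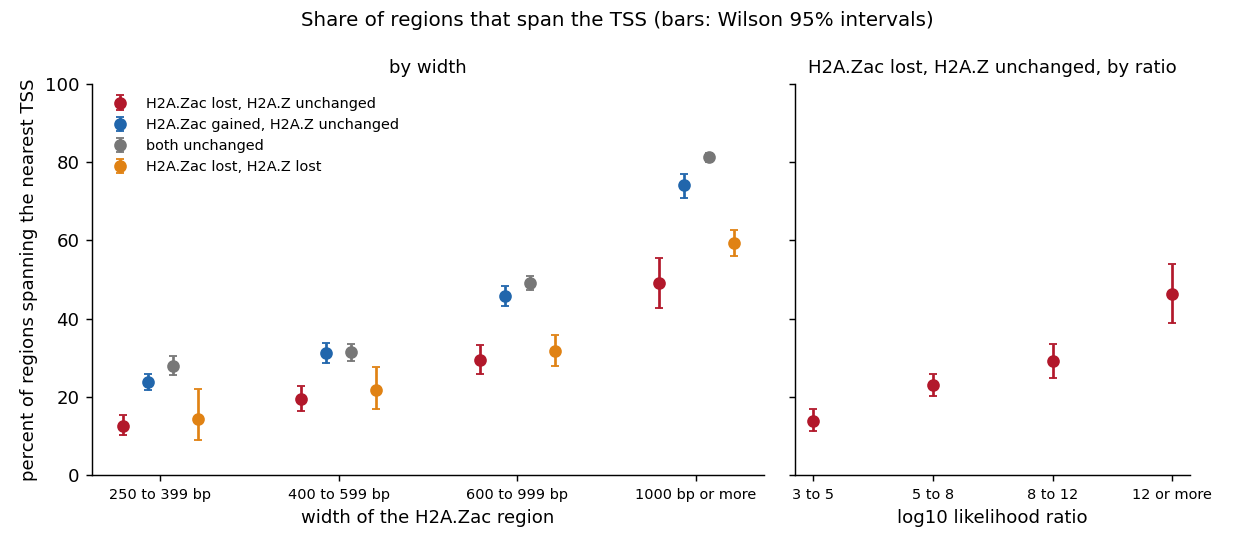
Percent of H2A.Zac regions that span the nearest TSS, by width of the region for each class (left) and by log10 likelihood ratio for regions lost over unchanged H2A.Z (right). Points are shares and bars Wilson 95% intervals. At every width lost regions over unchanged H2A.Z sat below gained and unchanged ones, from 12.7% against 23.8% and 28.0% in the narrowest class.

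The side of the start site also differed. The centre lay downstream of the nearest TSS in 44.9% (42.8 to 47.1) of the lost regions, against 63.7% (62.4 to 65.0) of gained and 56.9% of unchanged ones. Divergent promoters, where genes of both strands start within 1 kb, blur this measure, and they held 17.2% of the lost and 35.3% of the gained regions. At protein-coding start sites with genes on 1 strand alone, the centre was downstream in 38.2% (35.5 to 41.0) of 1180 lost regions and in 65.2% (63.3 to 67.0) of 2520 gained ones, with a median position of 311 bp upstream for lost and 222 bp downstream for gained regions. The regions that lost both marks were like the lost regions over unchanged H2A.Z in this respect, with 35.1% downstream. Coverage by the lost regions peaked 550 bp before the TSS, where 31.3% of them lay, and dipped to 23.5% at the TSS. Gained regions peaked at 225 bp after the TSS with 50.9%. When the overlap, the TSS window, the ratio, the width and the other settings were varied, the intervals of lost and gained regions stayed apart in all 14 alternatives that gave both classes, for spanning and for side.

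**Figure D3:**
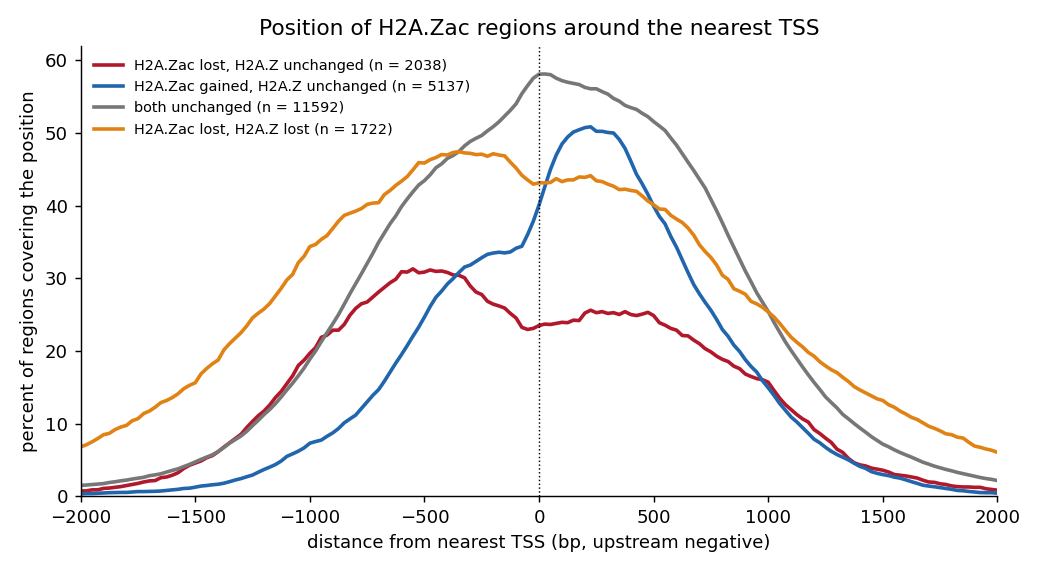
Percent of the H2A.Zac regions of each class that cover each position around their nearest TSS (bp, upstream negative). Lost regions over unchanged H2A.Z reach 31.3% at 550 bp upstream, gained regions 50.9% at 225 bp downstream, and regions with both marks unchanged peak over the TSS at 58.1%.

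Acetylation at the start site itself was mostly listed as unchanged. For the 1559 lost regions that did not span their nearest TSS, that TSS lay in an unchanged H2A.Zac region in 72.6% (70.3 to 74.8), in a gained region in 8.34%, in another lost region in 5.71% and in no region in 17.1%. Gained regions beside their TSS had it in an unchanged region in 76.6% (75.1 to 78.1), regions that lost both marks in 56.0%. An unchanged H2A.Zac region lay in the same TSS window for 87.6% of the 2038, and within 100 bp for 86.1%. These shares were 94.3% and 92.0% for gained regions, and 57.8% and 56.2% where both marks were lost. An unchanged stretch nearby is therefore not particular to the lost regions over unchanged H2A.Z. The authors' lists are not exclusive of each other: 67.4% of the lost regions shared some bases with an unchanged H2A.Zac region, 20.4% had at least 50% of their length there, and 171 lay wholly inside one. The same held for gained regions, of which 79.8% shared bases with an unchanged one. Lost and unchanged regions were thus often adjoining or overlapping stretches of the same promoter.

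Lost and gained acetylation stood side by side at a minority of promoters. Another H2A.Zac region that was gained lay in the TSS window of 20.6% (18.9 to 22.4) of the lost regions, against 57.5% (56.6 to 58.4) of the unchanged ones over unchanged H2A.Z. By gene, a gained region, whatever H2A.Z lay beneath, stood in the window of 383 of the 1534 protein-coding genes that had a lost region over unchanged H2A.Z (24.97%). Counting only gained regions over unchanged H2A.Z, 246 of the 1534 had one. Among all 9606 protein-coding genes with a region over unchanged H2A.Z, 4445 had one (46.3%). In 283 of the 383 (73.9%, 69.3 to 78.0) the lost region of highest ratio was centred upstream and the gained one downstream, and in 51 the order was reversed. Since lost and gained regions share no base, opposite sides are partly built into this count. CDC42, a regulator of cell polarity, lost H2A.Zac between 1297 and 491 bp upstream of its TSS (ratio 21.97) and gained it between 121 and 1167 bp downstream (6.68). ZNF25, a zinc finger gene, had its lost region centred 402 bp upstream (23.38) and its gained one 121.5 bp downstream (4.43). At LAMP2, a lysosomal membrane protein, the centres lay at 331.5 bp upstream (14.21) and 634.5 bp downstream (10.77). Of the 1534 genes, 56 had lost regions on both sides of the TSS, led by LPCAT1, a phospholipid-remodeling acyltransferase, by NEK5, a kinase, and by FZD8, a Wnt receptor.

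The ratios that define these regions give the strength of the call, not the size of the loss. Their median was 6.26, from 3.15 to 38.34. Just inside the threshold were regions at AQP10 (3.15) and CHORDC1P1 (3.19), and the highest scores below it among the unchanged regions over unchanged H2A.Z were at FBRS (2.90) and SNF8 (2.84), whose scores carry no sign and may lean to either loss or gain. The minimum overlap separated the lost regions near GAR1-DT (25.04% of length in unchanged H2A.Z) and TELO2 (25.05%) from those at TATDN2 (24.91%) and NICN1 (24.75%). The lost regions had a median of 78.9% of their length in unchanged H2A.Z and 26.2% of them were wholly covered. In the 1559 that lay beside the TSS, unchanged H2A.Z covered on average 89.4% of the segment nearer the TSS and 59.0% of the outer one when each region was split at its middle. The inner segment had more coverage in 62.3% of the regions, against 63.2% for unchanged H2A.Zac regions beside a TSS and 45.7% for gained ones. The outer segment had more in 11.3%, 16.2% and 13.5%. Both were covered equally in 412 of the 1559 lost, 1001 of 4855 unchanged and 1255 of 3077 gained regions. The shares therefore depend on how often coverage was equal, and the classes are not ranked by them.

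The H2A.Z beneath was listed as unchanged because its own log10 likelihood ratio stayed under 3, which does not show that the amount was equal. The median score of the H2A.Z regions beneath the lost regions was 0.60 (interval 0.58 to 0.61), against 0.61 for gained and 0.57 for unchanged H2A.Zac regions. These scores carry no sign, so a small decrease and a small increase cannot be told apart. Changed H2A.Z lay within 1 kb of 15.3% of the lost regions, without touching them. That share was 12.9% for gained and 16.1% for unchanged H2A.Zac regions over unchanged H2A.Z. The nearest TSS itself was in unchanged H2A.Z for 73.8% of the lost regions and in no H2A.Z region for 24.3%. The TSS shares were 66.2% and 33.3% for gained regions, and 68.1% and 30.7% for unchanged ones.

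Among protein-coding genes whose TSS lay inside a lost region, the 15 of highest ratio were taken, so that loss across the start site is part of how they were picked. Regions beside a TSS reached similar ratios, such as 22.40 at UQCRC1, a subunit of respiratory complex III, and 21.97 at CDC42, and of all regions at 12 or more 64.2% had an unchanged H2A.Zac region in the window. TOX, an HMG-box factor known from T cell development, had the highest ratio of all 2038 such regions (38.34): its lost region ran from 1555 bp upstream to 1971 bp downstream of the TSS, 3527 bp in all, and 34.3% of it lay over an unchanged H2A.Z region between 1064 bp upstream and 143 bp downstream. MCIDAS, a regulator of multiciliated cell differentiation, lost H2A.Zac from 22 bp upstream to 1390 bp downstream (22.84), next to an unchanged segment and then a second lost region further upstream where H2A.Z was lost too. TUBB8, a beta-tubulin, came next with 20.77 and is uncertain because of its copies. TMEM272 and an overlapping protein-coding gene, ENSG00000285444, shared 1 lost region of ratio 20.63.

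ALDH2, the mitochondrial aldehyde dehydrogenase, lost H2A.Zac from 1405 bp upstream to 902 bp downstream (19.995) over H2A.Z that covered 51.3% of that span. KCNH1, a voltage-gated potassium channel, had a ratio of 19.99 in a region of 954 bp. NAE1, a subunit of the enzyme that activates NEDD8, had 19.24 in a region at its annotated 5′ end that ran into the gene. NDUFA4L2, a mitochondrial protein induced by hypoxia, had 19.22 over 2515 bp, but only 28.4% lay in unchanged H2A.Z and its TSS lay in none. The rest of the 15 were NAT8B (18.34), an N-acetyltransferase, PPP1R14C (18.28), an inhibitor of protein phosphatase 1, FAM171A1 (17.78), ZNF618 (17.47), VLDLR (17.44), a lipoprotein receptor, and CTNNBL1 (17.20), a spliceosome-associated protein. Of the 15, 10 had no second H2A.Zac region in their window. The TSS is the outermost annotated 5′ end of a gene, which at NAE1 lay 42280 bp, at TUBB8 24867 bp and at NDUFA4L2 3611 bp from the start of the MANE Select transcript, the one chosen to represent the gene, and none of these 3 lost regions reached that start.

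Width picked out other genes. The widest lost region over a protein-coding TSS was at MYOM1, a sarcomere protein, with 4263 bp, of which 25.7% lay in unchanged H2A.Z and none at its TSS. It was followed by TOX, by PPP1R16B (3232 bp), a phosphatase subunit, by GPT2 (2661 bp), the mitochondrial alanine transaminase, and by SPATS2L (2554 bp). Among lost regions that lay wholly in unchanged H2A.Z, the highest ratios were at RGCC (14.37), a cell-cycle regulator, IGSF10 (12.89) and NKAIN1 (12.76), all spanning their TSS. At RGCC, H2A.Z was lost nearby, between 548 and 132 bp upstream of the TSS (5.24). The lost H2A.Zac region there began 41 bp upstream.

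**Figure D4:**
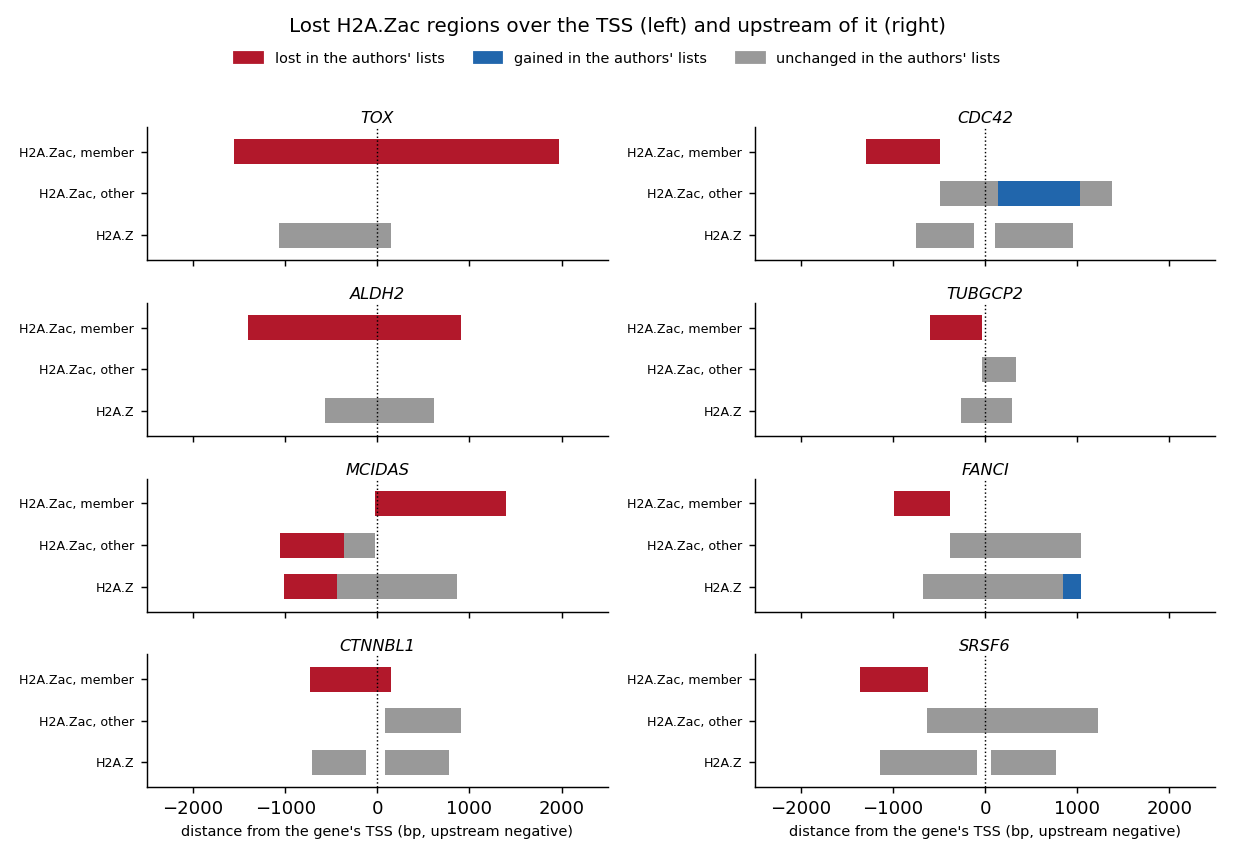
Regions in the authors' lists around the TSS of 8 genes, as distance from the TSS in bp (upstream negative), colored by call. On the left the lost H2A.Zac region covers the TSS, from 1555 bp upstream to 1971 bp downstream at TOX. On the right it lies upstream of an H2A.Zac region listed as unchanged over the TSS, as at CDC42, where it ends 491 bp before the TSS.

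In all, 1534 of the 9606 protein-coding genes with an H2A.Zac region over unchanged H2A.Z alone in their TSS window had a lost one (16.0%), and 4445 had a gained one (46.3%), 246 of them both. A total of 110 genes had 2 or more lost regions, and the TSS lay inside a lost region in 316 (20.6%) of the 1534. The nearest TSS was protein-coding for 1366 of the 2038 regions and that of a long noncoding RNA for 466. The gene lists that follow are described by their counts beside these shares. They were not tested, and a region between neighboring genes counts for each.

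Among genes of chromatin acetylation, 34 acetyltransferase, SAGA and deacetylase genes had a region to assess, of which 9 (26.5%) had a lost one and 23 (67.6%) a gained one, 3 of them both. The highest ratios stood at SIRT2 (11.40), an NAD-dependent deacetylase, HDAC5 (8.27) and HDAC7 (7.54), both class II deacetylases. In each of these 3 the lost region lay upstream of the TSS, that of HDAC7 was the widest of all at 4276 bp, and the region at SIRT2 is the same as at NFKBIB, an NF-kB inhibitor that starts nearby. Among 17 TIP60 complex genes 4 had a lost region and 4 a gained one. MORF4L1, a chromodomain subunit, had 1 of 257 bp centred 160 bp downstream (5.18), EPC2, a paralog of the scaffold EPC1, had 1 of 273 bp ending 7 bp before the TSS (4.38), and the ACTB region had a ratio of 5.86. At MORF4L1 the annotated 5′ end lay 62403 bp, at ACTB 33301 bp and at HDAC7 13229 bp from the MANE Select start, so these regions are not at the usual start of the gene. Of 12 H2A.Z and SRCAP complex genes only ACTR5, an INO80 subunit gene kept in that list, had a lost region (4.22), and 4 had a gained one.

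In the lists of growth, RNA-processing and zinc finger genes, gained regions outnumbered lost ones except in the MYC network, where the counts were equal. Cyclins, CDKs and inhibitors had 4 lost and 5 gained of 12, the lost ones including the CDK inhibitor genes CDKN1C (12.58, a region of 1625 bp inside the gene) and CDKN2C (6.85) and the cyclin gene CCNE2 (6.61). Spliceosome genes had 8 lost and 13 gained of 32, the lost ones led by the splicing factor SRSF6 (10.53), the RNA-binding protein HNRNPC (9.06) and SRSF5 (8.56), all upstream of their TSS. In the MYC network 3 of 15 had a lost region and 3 a gained one, with NCL, a nucleolar protein, at 11.07 over its TSS, SRM, the spermidine synthase, at 9.18 and MYCL at 4.72. E2F targets and replication licensing genes had 5 lost and 16 gained of 42, with losses at E2F2 (5.11) and MCM6 (4.92), and DNA double-strand break repair 4 lost and 12 gained of 30, with losses at FANCI (12.18), RAD51C (10.85) and RAD51D (8.33) among others. Immediate early genes had 3 lost and 4 gained of 16, the lost ones at EGR3 (10.27) over its TSS, FOSB (8.46) and IER3 (4.42) beside it. Zinc finger genes named ZNF had 59 lost (17.7%) and 151 gained (45.3%) of 333, both near the shares of all genes. The annotated 5′ end lay 40242 bp from the MANE Select start at SRSF5, 19157 bp at NCL, 9500 bp at CDKN2C, 1662 bp at RAD51D and 1477 bp at CCNE2, and the positions given for these are relative to that end.

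Mitochondrial, proteasome and ribosome lists likewise held more genes with gained than with lost regions, as did all protein-coding genes. NADH dehydrogenase, cytochrome c oxidase and ATP synthase genes with related subunits had 5 lost and 43 gained of 62, and the highest lost ratio was at UQCRC1 (22.40), a subunit of complex III, in a region centred 847.5 bp downstream of the annotated 5′ end, which lay 1330 bp from the MANE Select start. Proteasome genes had 4 lost and 22 gained of 27, 3 with both, and at PSMB4 (6.67), PSMD11 (6.01) and PSMB5 (4.56) the lost region lay upstream of a TSS listed as unchanged. Mitochondrial ribosomal proteins had 9 lost and 38 gained of 64, led by MRPS12 (9.76), MRPL42 (8.93) and MRPS26 (8.77), again upstream in each case. Cytosolic ribosomal proteins had 5 lost and 21 gained of 55, including RPL22 (13.44), whose annotated 5′ end lay 9794 bp from the MANE Select start, and RPS19 (6.75). Ribosome biogenesis had 3 lost and 13 gained of 31, the lost ones at NCL, GAR1 (10.49) and NHP2 (9.10).

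The remaining lists, of stress, signaling, metabolism and other gene families, held 0 to 2 genes with a lost region each. The ATF4 and unfolded protein response had 1 lost and 8 gained of 12, the lost one at the chaperone PDIA4 (7.69). NF-kB genes had 2 lost and 7 gained of 16, NFKBIB and BIRC3 (3.56), and p53 targets 1 lost and 7 gained of 10, with the lost one at MDM2 (5.49), the ubiquitin ligase of p53. Glycolysis and hypoxia genes had 2 lost and 10 gained of 24, PFKFB3 (11.10) and the glucose transporter SLC2A3 (5.80). Erythroid factors and heme synthesis, a lineage that K562 cells partly follow, had 1 lost, at the transferrin receptor TFRC (5.52), and 9 gained of 18. Aminoacyl-tRNA synthetases had 1 lost (CARS1) and 7 gained of 12, and replication-dependent histone genes 1 lost (H1-4, ratio 19.56) and 7 gained of 14. Small nucleolar RNA host genes had 1 lost (SNHG5) and 7 gained of 16, HOX genes 1 lost (HOXC9) and 3 gained of 7, and the STAT5 pathway 0 lost and 4 gained of 5. The annotated 5′ end was 82820 bp from the MANE Select start at SLC2A3, 57998 bp at PFKFB3 and 5266 bp at HOXC9. Among the nearest protein-coding genes of the lost regions, 143 of 1284 (11.1%) had an end more than 1000 bp from the representative start. The lists are small, and for most of them a single gene moves the share by several percentage points, so a low count is not read against the 16.0% of all genes.

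**Figure D5:**
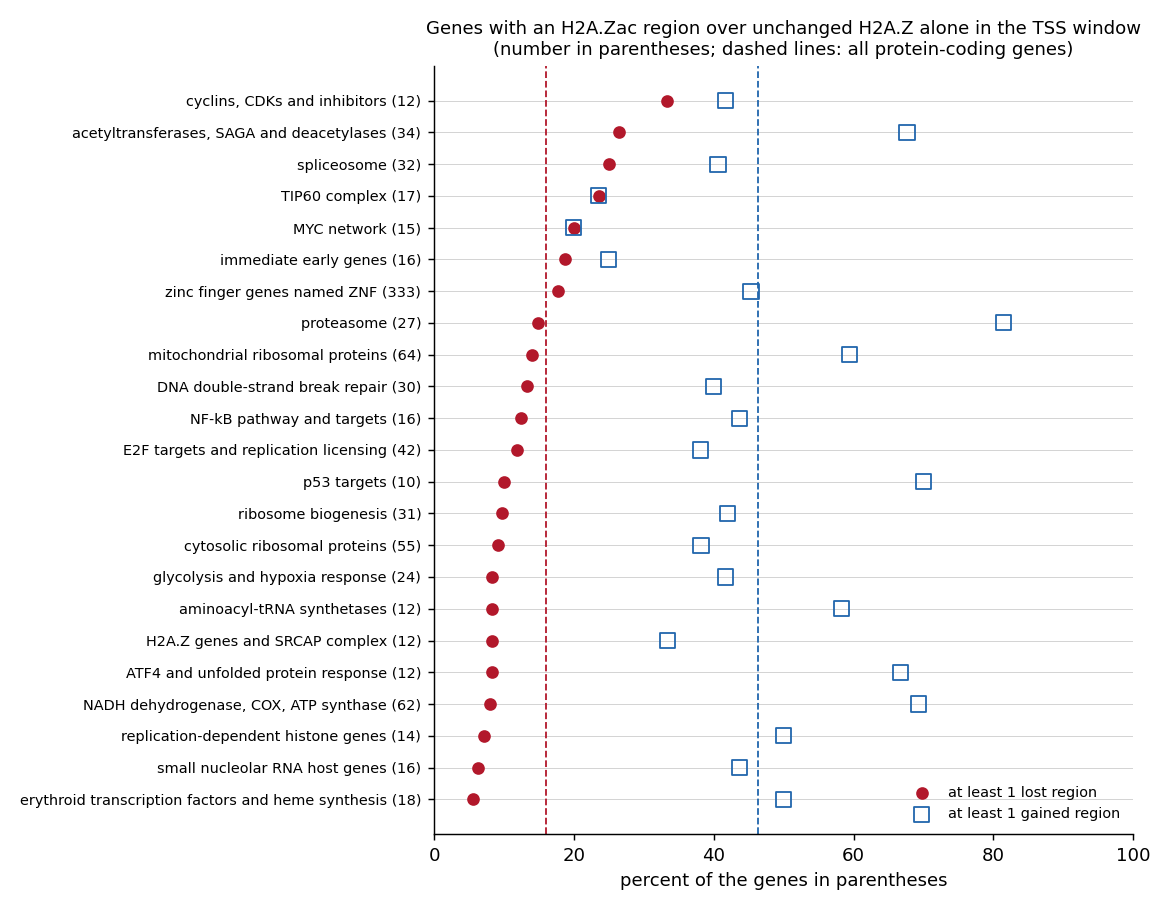
Percent of the genes of each list with at least 1 lost (red circles) or gained (blue squares) H2A.Zac region over unchanged H2A.Z alone, among the genes with any such region (number in parentheses), for 23 of the lists with 10 or more such genes (1 other such list is not reported here). Dashed lines mark all protein-coding genes, 16.0% lost and 46.3% gained. Proteasome genes stand at 81.5% gained. The lost share is 33.3% for cyclins, CDKs and inhibitors (4 of 12) and 26.5% for acetyltransferase, SAGA and deacetylase genes.

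Neither the genes shown one by one in the study, CCND1, TERT and DACH1, nor the EP400 gene held such a region. At CCND1, the cyclin D1 gene, the TSS window held a lost H2A.Zac region and a lost H2A.Z region. At TERT, the telomerase reverse transcriptase, it held a lost H2A.Zac region and no H2A.Z region. DACH1, a transcriptional repressor, and EP400 had gained H2A.Zac and gained H2A.Z in the TSS window. The window also held 1 unchanged H2A.Z region at DACH1, and 2 unchanged H2A.Z regions and 1 unchanged H2A.Zac region at EP400.

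The lost regions were poorer in GC and CpG than the gained and unchanged classes over unchanged H2A.Z, but not than regions that lost both marks. Median GC content was 55.1% (54.3 to 55.8), against 59.0% for gained and 57.5% for unchanged regions, and the ratio of observed to expected CpG was 0.56, against 0.69 and 0.67. Regions where H2A.Z was lost too had a median GC content of 54.4% (53.8 to 55.0), an interval that overlaps that of the lost regions over unchanged H2A.Z, and a CpG ratio of 0.40, lower still. In the 300 bases at the centre of each region, a GC box was present in 33.0% (31.0 to 35.0) of lost regions, against 48.7% in the gained and 46.0% in the unchanged class, and the ETS motif CCGGAA in 8.54%, 16.3% and 15.1%. An E-box was found in 7.70% (6.62 to 8.94), 4.01% (3.51 to 4.58) and 6.41% (5.98 to 6.87), and the GATA motif AGATAA in 10.9%, 8.10% and 8.43%. Position and composition go together around a TSS, and their shares in these differences were not tested.

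Where the comparison was held to the promoter itself, from 250 bases before to 50 bases after the TSS, the ETS difference stayed, while for the E-box and GATA motifs the intervals, wider with fewer lost items, overlapped between the classes. CCGGAA was present in 12.3% (9.16 to 16.4) of the 316 protein-coding promoters whose TSS lay inside a lost region, in 30.1% (27.9 to 32.3) of the 1716 inside a gained region, in 29.0% of the 5915 inside an unchanged region and in 19.5% of all 20046 protein-coding promoters. An E-box was present in 11.4% (8.34 to 15.4) of promoters inside a lost region, 9.44% (8.15 to 10.9) inside a gained and 10.1% (9.37 to 10.9) inside an unchanged one, and AGATAA in 6.96% (4.64 to 10.3), 5.19% (4.23 to 6.34) and 4.95% (4.43 to 5.54). Overlapping intervals do not show that the classes were alike. GC boxes were found in 64.2% (58.8 to 69.3), 69.7% (67.5 to 71.8), 70.4% (69.2 to 71.5) and, among all promoters, 52.4%, so the first 3 intervals overlap as well, and the median GC content was 64.7%, 64.0%, 65.0% and 60.3%. The YY1 motif AAGATGGC was present in 1.58% (0.68 to 3.65) of the promoters inside a lost region. It was in 5.94% (4.92 to 7.16) inside a gained one, 4.36% (3.87 to 4.91) inside an unchanged one and 3.04% (2.81 to 3.28) of all. The NRF1 motif GCATGCGC was in 1.58% (0.68 to 3.65), 5.83% (4.81 to 7.04), 6.32% (5.73 to 6.97) and 3.78% (3.52 to 4.05) of the same groups. For both motifs the lost share rests on 5 promoters. Its interval overlaps that of all promoters but lies below those of the gained and unchanged classes. At region centres the NRF1 motif stood in 1.28% of lost, 1.27% of gained and 2.10% of unchanged regions. A GC box can overlap the E2F motif TTTCCCGC, and a match names letters, not a bound factor.

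The lost regions were spread over all autosomes and chromosome X. The lost share of H2A.Zac regions over unchanged H2A.Z near a TSS ran from 7.64% (5.80 to 10.01) on chromosome X to 16.4% (13.1 to 20.5) on chromosome 20. On chromosome 20 the 2 directions were separated by position: from 30 Mb on, 50 of 209 regions were lost (23.9%) and 12 gained (5.74%), whereas before it 13 of 174 were lost (7.47%) and 55 gained (31.6%). The boundary at 30 Mb was chosen after the values were seen. CTNNBL1, PPP1R16B, SRSF6 and ACTR5 lie in that stretch. DNA copy number of the clones was not analysed here, and its part in the result was not tested. Without chromosomes 19 and 20 the lost share was 10.7%.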

How the data were processed

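Human K562 cells were profiled by ChIP-seq for H2A.Z and H2A.Zac. Per the labels and the study's methods, reads were aligned to hg38 with Bowtie2 2.4.5 and compared between lines by MACS2 2.2.7.1 bdgdiff, after peak calling with fragments extended to 191 bp, with a minimum length of 250 bp, a maximum gap of 150 bp and scaling by sequencing depth. The submitters' processing notes also name deepTools 3.5.1 and bedtools 2.30.0. The data were merged from the 2 replicates, and a region entered the lists if peaks below an irreproducible discovery rate of 0.05 covered 25% or more of it; the step at which replicates were merged is not given in the sources used here. The score deposited by the authors is a log10 likelihood ratio, at least 3 in the lost and gained lists and below 3 in the unchanged lists, where it carries no sign. A deposited score is not a fold change, and depth per sample is not known from these lists.

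TSSs were the 5′ ends of 62700 genes in GENCODE 44, 1 per gene. The study took TSSs from release 32, so some TSSs may differ. Canonical transcript starts were an alternative. Interval arithmetic was done with numpy 2.4.6 and pandas 2.3.3 and intervals with scipy 1.17.1. Covered lengths equaled those of bedtools 2.31.1 for all 24482 lost H2A.Zac regions, and the code was tested on simulated data. Genes named are the 15 protein-coding genes of highest ratio with their TSS inside a lost region, the 5 widest such regions, up to 3 genes per list by ratio (some items are not reported here), the regions next to each threshold, the 3 best covered, the 3 loci the study showed one by one, and EP400. CDC42, TUBGCP2, LAMP2, LPCAT1, NEK5 and FZD8 were named after their values were seen, by the ratio within their own group except LAMP2. Motif matches are exact and on both strands. The members and gene lists were chosen with earlier results of these data known. Alternatives changed the overlap, the TSS window, the ratio, the width, the distance to changed H2A.Z and the chromosomes used.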

Additional observations from a re-analysis of the deposited data

How the results depend on the processing

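No paired analysis was possible because the lists hold no value per replicate, and leaving out a replicate was likewise not possible. Shares and medians were recomputed under 16 alternatives, of which leaving out lost regions, or lost and gained ones, with at least 50% of their length in unchanged H2A.Zac, and taking the MANE Select or Ensembl canonical transcript start as the TSS, were chosen after seeing the data. Of 149 values, 91 stayed within 1.5 times the main count or within the interval of the main value. The regions numbered 293 at a ratio of 10, 1065 at 500 bp or more. Their share of lost TSS-proximal regions was 31.5% at 50% overlap, 42.6% at 1 bp of overlap, 35.1% with 2 kb to each side, 44.2% at protein-coding TSSs, 33.9% at a ratio of 5, 16.8% at a ratio of 10, 32.5% with no changed H2A.Z within 1 kb, 40.7% with under 25% in changed H2A.Z, 30.4% at 500 bp or more, 39.98% without chromosomes 19 and 20, 30.6% without lost regions mostly inside unchanged H2A.Zac. The lost share of changed regions over unchanged H2A.Z, 28.4% in the main analysis, was 24.1% with 0.5 kb to each side of the TSS, 30.8% with 2 kb to each side, 26.3% at protein-coding TSSs, 30.8% at a ratio of 5, 47.0% at a ratio of 10, 27.1% at 500 bp or more, 24.0% without lost regions mostly inside unchanged H2A.Zac, a filter on the lost side alone, and 29.2% when gained regions were filtered alike. The share spanning a TSS was 25.4% at 50% overlap, 32.9% with 0.5 kb to each side of the TSS, 19.5% with 2 kb to each side, 20.03% at protein-coding TSSs, 27.3% at a ratio of 5, 39.9% at a ratio of 10, 27.7% with neighbors within 1 kb merged, 32.5% at 500 bp or more, 25.8% without lost regions mostly inside unchanged H2A.Zac. Under the 14 alternatives that applied to gained regions too, that class spanned a TSS in 36.6% to 58.2% and was centred downstream in 61.2% to 65.4%, and its intervals stayed above those of the lost regions in each of the 14, for both measures. The share centred downstream was 40.3% at protein-coding TSSs, 49.1% at a ratio of 10, and the share near a protein-coding TSS 71.5% with 0.5 kb to each side of the TSS, 100% at protein-coding TSSs, 76.4% with the canonical starts. With those starts 2102 regions qualified, of which 21.8% spanned a TSS and 43.6% were centred downstream. The median width in bp was 496.5 at 50% overlap, 544 with 0.5 kb to each side of the TSS, 601 at a ratio of 5, 763 at a ratio of 10, 549 with neighbors within 1 kb merged, 725 at 500 bp or more, 568 without lost regions mostly inside unchanged H2A.Zac. Median GC content was 56.3% at 50% overlap, 57.4% with 0.5 kb to each side of the TSS, 54.0% with 2 kb to each side, 55.9% at protein-coding TSSs, 57.4% at a ratio of 10. The median H2A.Z score was 0.61 at a ratio of 5, 0.64 at a ratio of 10, 0.58 with no changed H2A.Z within 1 kb, 0.62 at 500 bp or more. Another H2A.Zac region shared the TSS window in 84.3% with 0.5 kb to each side of the TSS, 92.2% at protein-coding TSSs, 86.3% at a ratio of 5, 73.0% at a ratio of 10, 88.1% with no changed H2A.Z within 1 kb, 87.9% with under 25% in changed H2A.Z, 84.8% at 500 bp or more, 86.9% without lost regions mostly inside unchanged H2A.Zac. Leaving out each chromosome in turn gave 1817 to 2016 regions and a share spanning a TSS from 22.9% to 24.3%, and moved no value outside its interval. The lists give no depth, so a region absent from a list may be below detection.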
